A study of Mus musculus with 7 samples.

Results

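The 9 genes that encode the AMPA and kainate receptor subunits, Gria1 to Gria4 and Grik1 to Grik5, were followed in mouse cortex of 2 ages. They were taken by gene symbol from the deposited tables, which list 53801 genes, and all 9 were found. RNA sequencing was done on tissue labelled cortical plate from C57BL/6J mice. The Adult group held 3 libraries from 10.5-month-old females with a CamK II-Cre transgene, of which replicates 1 and 3 carried 1 floxed Atr allele (Atr fl/+) and replicate 2 none (Atr +/+). The E14.5 group, embryonic day 14.5, held 4 libraries with a Nestin-Cre transgene and 1 floxed Nbs1 allele (Nbs1 fl/+), with males in replicates 1 and 4 and females in replicates 2 and 3. The CamK II promoter is active in forebrain excitatory neurons and the Nestin promoter in neural progenitors. No group lacked a Cre transgene, and the ages shared neither Cre driver, floxed allele nor library kit, so age cannot be told apart from these. For the E14.5 libraries the labels' plug and isolation dates lie fewer days apart than the stated stage, which is used as labelled. Whether each library is a separate animal is not stated in the labels. Sex at E14.5 and Atr genotype in adults differ between libraries, so not all libraries of an age came from the same animal. P-values therefore cover only the spread among these libraries, part of which may be technical.

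AMPA and kainate receptors are glutamate-gated cation channels built from 4 subunits. AMPA receptors carry most fast excitatory transmission in the cortex, and the GluA2 subunit (Gria2) makes the channel nearly impermeable to calcium once its RNA has been edited. Of the kainate receptor subunits, GluK1 to GluK3 (Grik1 to Grik3) can form channels alone, whereas GluK4 and GluK5 (Grik4 and Grik5) need one of these as a partner. Kainate receptors modulate transmitter release and neuronal excitability and are present early in cortical development.

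The editing site that sets calcium permeability lies in the pore-lining segment of the subunit. It is shown here because Gria2 and the editing enzyme Adarb1 both differed between the ages, while counts per gene cannot show how much of the RNA was edited. The coding sequences below, from GENCODE M21 transcripts on GRCm38, run 15 codons to each side of the site, with the codon of the site in capitals. In this reference the codon is CAG in 8 of the 9 genes and CAA in Gria4, all glutamine. Editing of the middle adenosine makes the ribosome read arginine, and it is known in Gria2, Grik1 and Grik2.
Gria1: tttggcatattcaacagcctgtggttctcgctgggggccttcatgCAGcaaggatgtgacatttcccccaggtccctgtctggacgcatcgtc
Gria2: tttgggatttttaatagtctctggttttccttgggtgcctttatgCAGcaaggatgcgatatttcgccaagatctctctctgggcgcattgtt
Gria3: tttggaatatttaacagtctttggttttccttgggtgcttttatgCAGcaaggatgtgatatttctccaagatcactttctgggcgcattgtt
Gria4: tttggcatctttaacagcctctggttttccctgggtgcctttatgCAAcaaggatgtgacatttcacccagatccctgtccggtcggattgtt
Grik2: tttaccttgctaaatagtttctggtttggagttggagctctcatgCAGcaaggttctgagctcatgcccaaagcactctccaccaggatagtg
Grik5: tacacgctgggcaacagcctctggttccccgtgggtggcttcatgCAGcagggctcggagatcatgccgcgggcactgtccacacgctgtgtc

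The Gria2 codon is number 607 of the coding sequence and lies at chr3:80706911-80706913 on the minus strand. Of 93 bases, the Gria3 window differs from that of Gria2 at 9, the Gria4 window at 15 and the Gria1 window at 21. The kainate windows stand further off, with 37 differences for Grik2 and for Grik5 and 35 to 36 for the other 3. The Grik4 and Grik5 windows each lie in a single exon and the other 7 cross an exon junction. Between whole transcripts, the longest run of identical bases was 57 in any pair of the same family and 51 in any pair across families. The runs of these lengths held only 2 distinct dinucleotides each. In coding sequence alone the longest run was 56 within a family and 29 across families. No member shares exonic bases with a gene on the opposite strand, which bears on these data because the Adult kit keeps the strand of the RNA and the E14.5 kit does not.

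Expression levels are given as TMM-normalised RPKM, that is, CPM (counts scaled to a common library size, here the total count times its TMM factor) divided by the gene length in kilobases that the authors used. Fold changes are Adult over E14.5, and the test is edgeR's quasi-likelihood test with Benjamini-Hochberg adjustment over 20800 genes. With TMM factors all 9 subunit genes passed as higher in the adult tissue, with no overlap between the ages, but Grik2 kept its direction and passed under 7 of 18 alternatives and was lower in adults with total counts only and in limma on the deposited RPKM. Over all genes tested, 41.7% were called higher and 44.7% lower in adults, and 85.3% did not overlap, so non-overlap is the background here and says little about the members. A rise tested to exceed 2-fold with TMM factors was called for 6 of the 9 members and for 24.6% of all genes. These 6 were the 4 AMPA genes, Grik1 and Grik4. The median log2 fold change was 3.06 over the 4 AMPA genes and 0.74 over the 5 kainate genes, beside -0.08 over all genes. Scaling by total counts lowered the median of all genes to -0.49. Levels come from whole tissue, so fewer cells of a type and less RNA per cell cannot be told apart.

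**Figure D1:**
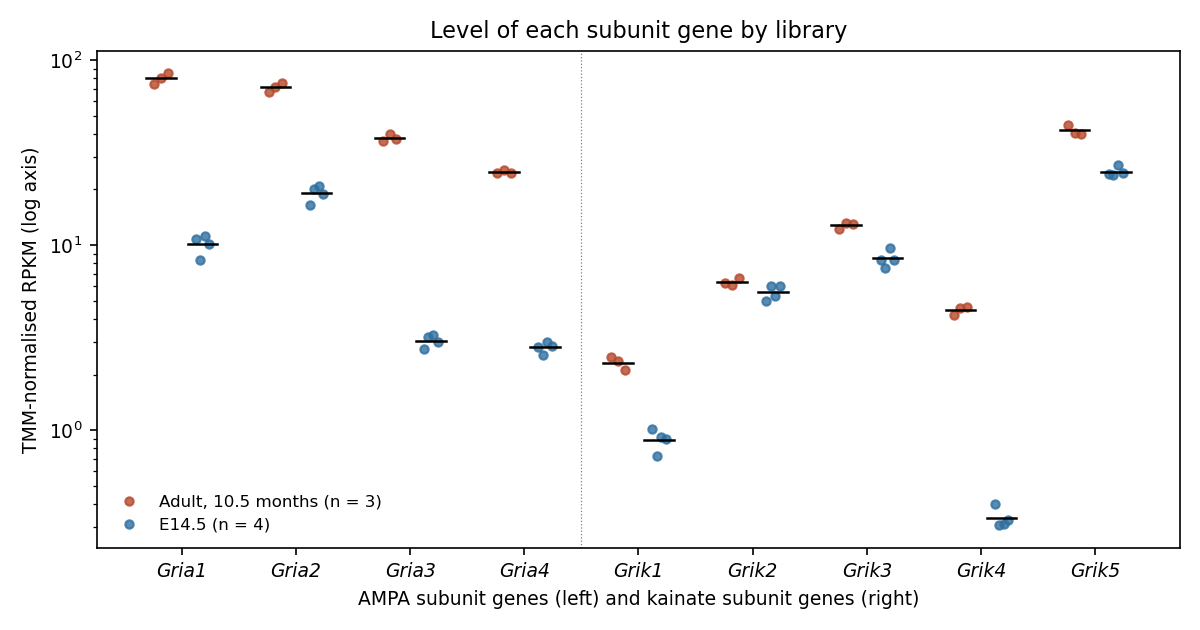
Level of each subunit gene in every library, as TMM-normalised RPKM on a log axis, with Adult (n = 3) left of E14.5 (n = 4) and a bar at each mean. The 4 AMPA genes and Grik4 stand far apart between the ages, whereas the Grik2 values nearly touch, at 6.06 in the lowest Adult library and 6.03 in the highest E14.5 library, and are in the opposite order in the deposited RPKM.

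Gria1 encodes GluA1, the subunit whose phosphorylation and delivery to synapses is tied to long-term potentiation. The gene (ENSMUSG00000020524) lies on the plus strand of chromosome 11, from 57011387 to 57330244 (GRCm38). Its level was 74.2, 80.0 and 84.8 RPKM in Adult replicates 1 to 3, against 10.8, 8.36, 11.3 and 10.2 RPKM in E14.5 replicates 1 to 4. Every adult library stood far above every E14.5 library, and the lowest E14.5 value was in replicate 2. The log2 fold change was 2.97 (SE 0.0944, edgeR adjusted p = 1.6e-10), which is 7.85-fold.

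Gria2 encodes GluA2, the subunit that carries the edited site shown above. The gene (ENSMUSG00000033981) lies on the minus strand of chromosome 3, from 80681450 to 80802835. It had 67.6, 72.0 and 75.4 RPKM in Adult replicates 1 to 3, against 16.6, 19.99, 20.9 and 19.0 RPKM in E14.5 replicates 1 to 4. The groups were well separated. Gria2 had the highest E14.5 level of the AMPA genes and the smallest change. On the log2 scale adults were 1.91 higher (SE 0.0787, edgeR adjusted p = 1.3e-09), or 3.75-fold.

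Gria3 encodes GluA3, which pairs with GluA2 in receptors that are delivered to synapses without strong activity. The gene (ENSMUSG00000001986) lies on the plus strand of chromosome X, from 41400854 to 41678601. It had 36.4, 39.7 and 37.6 RPKM in Adult replicates 1 to 3, against 2.73, 3.18, 3.26 and 2.98 RPKM in E14.5 replicates 1 to 4. The E14.5 males, replicates 1 and 4, had the lower values of that age, as also for Gria2 on chromosome 3. The part of sex in this was not tested. The log2 fold change of Gria3 was 3.55 in females only and 3.56 with sex as a covariate. Gria3 showed the largest change of the AMPA genes, 3.64 on the log2 scale (SE 0.0666, edgeR adjusted p = 3.4e-12), or 12.5-fold.

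Gria4 encodes GluA4, a subunit with fast kinetics that is prominent in interneurons and in the developing hippocampus. The gene (ENSMUSG00000025892) lies on the minus strand of chromosome 9, from 4417896 to 4796234. It had 24.5, 25.4 and 24.5 RPKM in Adult replicates 1 to 3, against 2.82, 2.54, 3.01 and 2.84 RPKM in E14.5 replicates 1 to 4. Both ages were tight around their means, 24.8 ± 0.478 RPKM in adults and 2.80 ± 0.191 RPKM at E14.5 (SD, n = 3 and n = 4). Adults were higher by 3.14 on the log2 scale (SE 0.0576, edgeR adjusted p = 3.4e-12), or 8.84-fold.

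Among the kainate genes, Grik4 differed most. Grik4 encodes GluK4, a high-affinity subunit known from hippocampal mossy fibre synapses. The gene (ENSMUSG00000032017) lies on the minus strand of chromosome 9, from 42518135 to 42944493. It had 4.19, 4.60 and 4.64 RPKM in Adult replicates 1 to 3, against 0.399, 0.307, 0.313 and 0.326 RPKM in E14.5 replicates 1 to 4. At E14.5 it was the member with the fewest reads, 67 to 107 counts per library, against 632 to 662 counts per adult library. Its difference of 3.73 on the log2 scale (SE 0.104, edgeR adjusted p = 6.1e-11), or 13.3-fold, was the largest estimate of the 9 members with TMM factors, within its SE of that of Gria3.

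Grik5 encodes GluK5, the usual high-affinity partner of GluK2. The gene (ENSMUSG00000003378) lies on the minus strand of chromosome 7, from 25009849 to 25072346. It had 44.8, 40.6 and 39.8 RPKM in Adult replicates 1 to 3, against 24.3, 23.9, 27.2 and 24.5 RPKM in E14.5 replicates 1 to 4. Adult values were all above the E14.5 values, and E14.5 replicate 3 stood above the other 3 of its age. The log2 fold change was 0.74 (SE 0.0605, edgeR adjusted p = 4.8e-07), or 1.67-fold, and 0.33 with total counts only. A change beyond 2-fold was not called (glmTreat adjusted p = 1.0).

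Grik1 encodes GluK1, a subunit found in many interneurons. The gene (ENSMUSG00000022935) lies on the minus strand of chromosome 16, from 87895900 to 88290265. It had 2.49, 2.36 and 2.103 RPKM in Adult replicates 1 to 3, against 1.02, 0.727, 0.922 and 0.891 RPKM in E14.5 replicates 1 to 4. The log2 fold change was 1.38 (SE 0.117, edgeR adjusted p = 6.7e-07), or 2.60-fold. With total counts only it was 0.96, and in limma on the deposited RPKM 0.71 and 0.91, each short of 2-fold. The test beyond 2-fold was run with TMM factors only. Within E14.5, replicate 1 was highest and replicate 2 lowest for Grik1, the same libraries that were highest and lowest for the summed markers of GABAergic and ventral telencephalic cells, at 223.2 and 103.7 CPM. Adult libraries had 894 to 978 CPM of these 11 markers, against 104 to 223 CPM at E14.5, and 7 of the 11 were higher and 4 lower in adults. Among adults the match did not hold, since replicate 1 had the highest Grik1 level and the lowest sum of these markers. At E14.5 the summed oligodendrocyte and astrocyte markers, and Grik4, were also highest in replicate 1 and lowest in replicate 2. The part of any of these cells in the Grik1 difference was not tested.

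Grik3 encodes GluK3, a subunit of low glutamate sensitivity. The gene (ENSMUSG00000001985) lies on the plus strand of chromosome 4, from 125490700 to 125714173. It had 12.3, 13.2 and 13.1 RPKM in Adult replicates 1 to 3, against 8.36, 7.54, 9.71 and 8.32 RPKM in E14.5 replicates 1 to 4. Its log2 fold change was 0.60 (SE 0.0756, edgeR adjusted p = 2e-05), or 1.51-fold. It was 0.18 with total counts only, which still passed (edgeR adjusted p = 0.039), and it did not pass in limma on the deposited RPKM (adjusted p = 0.054).

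Grik2 encodes GluK2, the most widespread of the channel-forming kainate subunits. The gene (ENSMUSG00000056073) lies on the minus strand of chromosome 10, from 49094833 to 49788766. It had 6.25, 6.06 and 6.64 RPKM in Adult replicates 1 to 3, against 5.00, 6.03, 5.31 and 5.99 RPKM in E14.5 replicates 1 to 4. Its log2 fold change was 0.18 (SE 0.0716, edgeR adjusted p = 0.037), or 1.13-fold, the smallest of the 9. In the deposited RPKM, which is scaled by total counts, the order was the other way round, with 5.36 ± 0.281 in adults and 6.31 ± 0.529 at E14.5 (SD, n = 3 and n = 4). With total counts as the only scaling the log2 fold change was -0.24 (edgeR adjusted p = 0.0077). No direction is therefore given for Grik2 on its own.

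**Figure D2:**
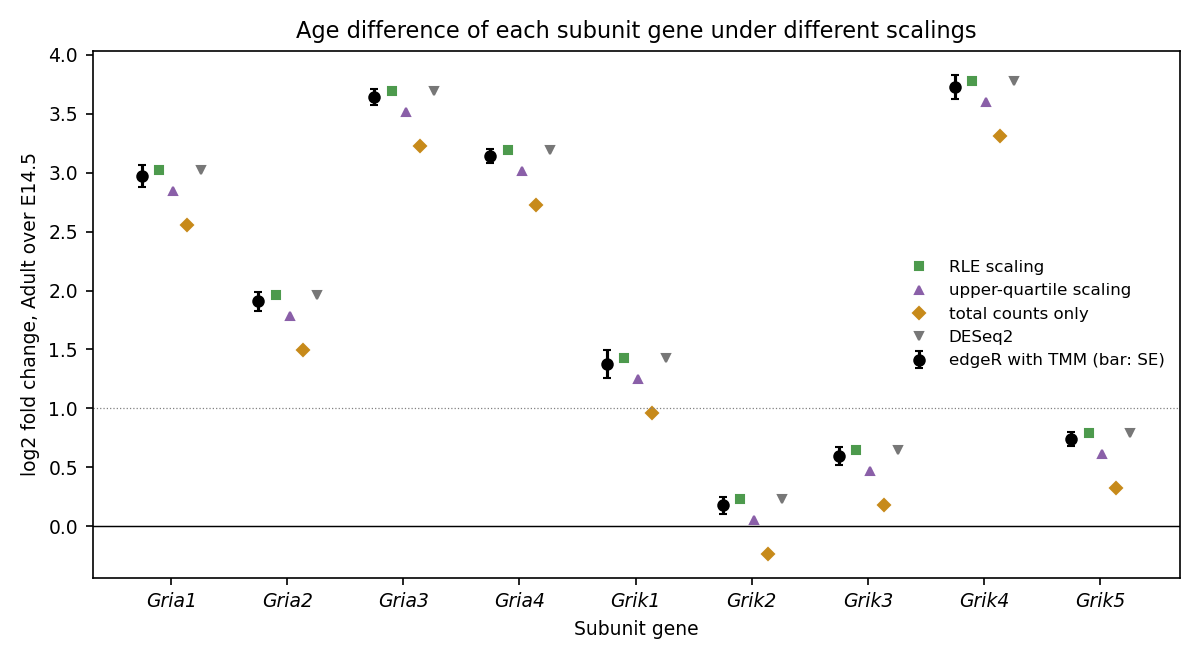
Log2 fold change of each subunit gene, Adult over E14.5, with edgeR and TMM factors (black, bars are SE), with 3 other scalings, and with DESeq2. The dotted line marks 2-fold. Each gene is lowest with total counts only, and with that scaling Grik2 lies below 0 at -0.24 while the other 8 genes stay above 0.

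Levels can be ordered within an age because they are given per length. With the authors' lengths the adult order was Gria1 (79.7 ± 5.28 RPKM), Gria2 (71.6 ± 3.94), Grik5 (41.7 ± 2.70), Gria3 (37.9 ± 1.68), Gria4 (24.8 ± 0.478), Grik3 (12.8 ± 0.511), Grik2 (6.31 ± 0.295), Grik4 (4.48 ± 0.2498) and Grik1 (2.32 ± 0.198; SD, n = 3). The ranges of Gria1 and Gria2 overlapped, and those of the other neighbours did not. The E14.5 order was Grik5 (24.98 ± 1.496 RPKM), Gria2 (19.1 ± 1.86), Gria1 (10.2 ± 1.28), Grik3 (8.48 ± 0.901), Grik2 (5.58 ± 0.512), Gria3 (3.04 ± 0.235), Gria4 (2.80 ± 0.191), Grik1 (0.890 ± 0.122) and Grik4 (0.336 ± 0.0428; SD, n = 4). At E14.5 a kainate gene, Grik5, thus had the highest level per length. The ranges of Gria1 and Grik3 and of Gria3 and Gria4 overlapped at that age. Before division by length Gria2 was above Grik5 at E14.5, at 297 and 129 CPM. The order depends on the length, which counts all annotated exons. With the longest coding transcript instead, the adult order began Gria2 (107.4 RPKM), Gria1 (86.8) and Gria3 (72.0), ahead of Grik5 (57.3), while the E14.5 order kept Grik5 (34.3) and Gria2 (28.6) in front.

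The make-up of each family was described by each gene's share of its family's summed RPKM, and by ratios within a library, in which the scaling between libraries cancels. With the authors' lengths, the AMPA sum was spread over the 4 genes in adults, whereas at E14.5 over 50% of it was Gria2. The Gria2 share was 33.3, 33.2 and 33.9% in Adult replicates 1 to 3, against 50.3, 58.7, 54.3 and 54.3% in E14.5 replicates 1 to 4. On deposited RPM, without division by length, the Gria2 share averaged 52.4% in adults and 73.1% at E14.5, over 50% at both ages. The other 3 genes each took a larger share in adults. The Gria1 share was 37.2 ± 0.807% in adults and 28.9 ± 3.40% at E14.5 (SD, n = 3 and n = 4). The Gria3 share was 17.7 ± 0.715% in adults and 8.66 ± 0.453% at E14.5. The Gria4 share was 11.6 ± 0.533% in adults and 7.998 ± 0.467% at E14.5. None of these shares overlapped between the ages. With 3 against 4 libraries there are 35 arrangements, and the exact two-sided permutation p of each was 0.0571, the smallest this design can give (0.0647 after Benjamini-Hochberg adjustment over 17 shares and ratios).

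Relative to Gria2, the other AMPA genes were higher in adults by a factor that does not depend on the length. The log2 ratio of Gria1 to Gria2 averaged 0.15 in adults and -0.92 at E14.5, that of Gria3 to Gria2 -0.92 in adults and -2.65 at E14.5, and that of Gria4 to Gria2 -1.53 in adults and -2.77 at E14.5. These ratios did not overlap between the ages (exact permutation p = 0.0571 each). Which of Gria1 and Gria2 is more abundant in adults does depend on the length, since with the longest coding transcripts the adult log2 ratio of Gria1 to Gria2 was -0.31.

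In the kainate family the Grik5 share was 61.6 ± 2.11% in adults and 62.0 ± 0.608% at E14.5 (SD, n = 3 and n = 4), and the ages overlapped (exact permutation p = 0.743). The Grik3 share also overlapped, at 19.0 ± 1.29% in adults and 21.02 ± 1.17% at E14.5 (exact permutation p = 0.171). The remaining genes did not overlap. Grik4 took 5.99, 6.89 and 7.01% in Adult replicates 1 to 3, against 1.02, 0.796, 0.720 and 0.814% in E14.5 replicates 1 to 4. Grik2 took 9.34 ± 0.588% in adults and 13.9 ± 1.66% at E14.5. Grik1 took 3.42 ± 0.216% in adults and 2.21 ± 0.300% at E14.5. Grik4 and Grik1 thus took a larger and Grik2 a smaller share in adults (exact permutation p = 0.0571 each). Among the partner-dependent subunits the log2 ratio of Grik4 to Grik5 was -3.22 in adults and -6.22 at E14.5. The ratio of the summed partner-dependent genes to the summed channel-forming genes was 1.11 in adults and 0.76 at E14.5 on the log2 scale.

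The balance between the families differed as well. The log2 ratio of the kainate sum to the AMPA sum was -1.53, -1.70 and -1.75 in Adult replicates 1 to 3, against 0.25, 0.18, 0.18 and 0.19 in E14.5 replicates 1 to 4. With the authors' lengths, kainate transcripts per length were thus 0.316 times the AMPA transcripts in adults and 1.15 times at E14.5, as geometric means. Every adult library lay below every E14.5 library (exact permutation p = 0.0571, adjusted p = 0.0647 over 17 shares and ratios).

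The proteins that travel with AMPA receptors were described from a list of 15 auxiliary subunit genes. Of these, 14 rose in adults and 1 fell, with a median log2 fold change of 1.56 beside -0.08 over all genes, and 9 of the rises were called beyond 2-fold. Over all genes 41.7% were called higher and 24.6% higher beyond 2-fold. The count of 14 was 12 with total counts only and 12 and 11 in limma on the deposited RPKM. The TARP genes of this list, some of whose proteins hold AMPA receptors at the synapse and slow their closing, went both ways. Cacng3 (TARP gamma-3) had 132.9, 131.0 and 128.9 CPM in Adult replicates 1 to 3, against 1.201, 1.26, 1.44 and 1.34 CPM in E14.5 replicates 1 to 4. On the log2 scale it was 6.64 higher (SE 0.0648, edgeR adjusted p = 2.2e-13). Cacng4 (TARP gamma-4) was the gene that fell, with 25.8, 23.9 and 25.2 CPM in Adult replicates 1 to 3, against 143.7, 123.0, 138.2 and 124.2 CPM in E14.5 replicates 1 to 4. Its log2 fold change was -2.41 (SE 0.0712, edgeR adjusted p = 9.2e-11), and for neither gene did the ages overlap. Per length, Cacng4 (37.0 ± 2.87 RPKM) and Cacng7 (36.9 ± 4.66 RPKM) led the TARP genes at E14.5, and Cacng7 (57.2 ± 3.06 RPKM) and Cacng3 (47.1 ± 0.724 RPKM) in adults. Cacng2, Cacng5, Cacng7 and Cacng8 were named after their values were seen. Cacng2, which encodes stargazin, had a log2 fold change of 3.64, Cacng8 one of 2.65 and Cacng7 one of 0.63, and all 3 passed (edgeR adjusted p = 3.5e-10, 1.9e-09 and 4.5e-05). Cacng5 had a log2 fold change of 1.05 (edgeR adjusted p = 0.0033) and was not called beyond 2-fold (glmTreat adjusted p = 0.37). Shisa9 (CKAMP44), which speeds AMPA receptor desensitisation, had 69.4 ± 3.72 CPM in adults and 5.17 ± 0.952 CPM at E14.5, a log2 fold change of 3.75 (edgeR adjusted p = 1.1e-10).

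A further 15 genes act in AMPA receptor assembly, anchoring and transport. Of these 13 rose in adults, 1 fell and 1 did not pass, with a median log2 fold change of 2.23 beside -0.08 over all genes, of which 41.7% were called higher and 44.7% lower. Frrs1l, an endoplasmic reticulum protein needed for AMPA receptor assembly, had 575 ± 31.1 CPM in adults and 25.5 ± 2.03 CPM at E14.5, a log2 fold change of 4.49 (edgeR adjusted p = 1.8e-12). Nptxr, the neuronal pentraxin receptor that clusters AMPA receptors, had 537 ± 39.2 CPM in adults and 25.2 ± 2.62 CPM at E14.5, a log2 fold change of 4.42 (edgeR adjusted p = 5.3e-12). Grip1, a PDZ scaffold that binds GluA2 and GluA3 and also carries other cargo into dendrites, was the gene that fell, with 19.6 ± 1.34 CPM in adults and 36.8 ± 1.85 CPM at E14.5 (log2 fold change -0.91, edgeR adjusted p = 2.3e-07). Pick1, which binds the same tail of GluA2, had 17.2 ± 1.49 CPM in adults and 16.6 ± 1.06 CPM at E14.5 (edgeR adjusted p = 0.59). With total counts only, Pick1 passed as lower in adults (log2 fold change -0.36, edgeR adjusted p = 0.0016).

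All 4 kainate receptor partner genes passed as higher in adults, beside 41.7% of all genes, but Neto2 kept this call under 7 of 18 alternatives. Neto1 and Neto2 encode the auxiliary subunits that slow kainate receptor kinetics. Neto1 had 71.1 ± 8.21 CPM in adults and 3.83 ± 0.894 CPM at E14.5 (log2 fold change 4.21, edgeR adjusted p = 2.1e-10). Neto2 had 86.7, 95.9 and 102.4 CPM in Adult replicates 1 to 3, against 76.2, 83.7, 93.0 and 77.4 CPM in E14.5 replicates 1 to 4. The ages overlapped for Neto2, its log2 fold change was 0.20 (edgeR adjusted p = 0.032), and with total counts only it was -0.21 (edgeR adjusted p = 0.025). With TMM factors Neto2 did not pass in females only (0.10, edgeR adjusted p = 0.26) or without Adult replicate 2 or 3 or E14.5 replicate 1 or 4 (edgeR adjusted p = 0.064 to 0.14). C1ql2 and C1ql3 encode secreted proteins that mossy fibres use to recruit postsynaptic kainate receptors. C1ql2 had 220, 266 and 302 counts in Adult replicates 1 to 3, against 1, 0, 1 and 1 counts in E14.5 replicates 1 to 4, too few for a fold change. C1ql3 had 74.1 ± 4.08 CPM in adults and 0.668 ± 0.287 CPM at E14.5 (log2 fold change 6.76, edgeR adjusted p = 2.2e-11), but 64.2% of its exonic bases overlap exons on the other strand, and the E14.5 kit cannot separate such reads.

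All 3 genes of the RNA editing family rose in adults, beside 41.7% of all genes. Adarb1 encodes ADAR2, the enzyme that edits the Gria2 site shown above. It had 250.6, 240.2 and 242.5 CPM in Adult replicates 1 to 3, against 22.5, 21.3, 24.5 and 22.2 CPM in E14.5 replicates 1 to 4, with no overlap. The log2 fold change was 3.43 (SE 0.0545, edgeR adjusted p = 1.6e-12). Adar, which encodes ADAR1, had 267 ± 5.63 CPM in adults and 81.3 ± 5.94 CPM at E14.5 (log2 fold change 1.71, edgeR adjusted p = 3e-10), with 16.8% of its exonic bases overlapping exons on the other strand. Adarb2, which encodes a brain-specific family member without known editing activity, had 16.1 ± 0.599 CPM in adults and 1.15 ± 0.618 CPM at E14.5 (log2 fold change 3.79, edgeR adjusted p = 3.9e-07). Editing itself was not measured.

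**Figure D3:**
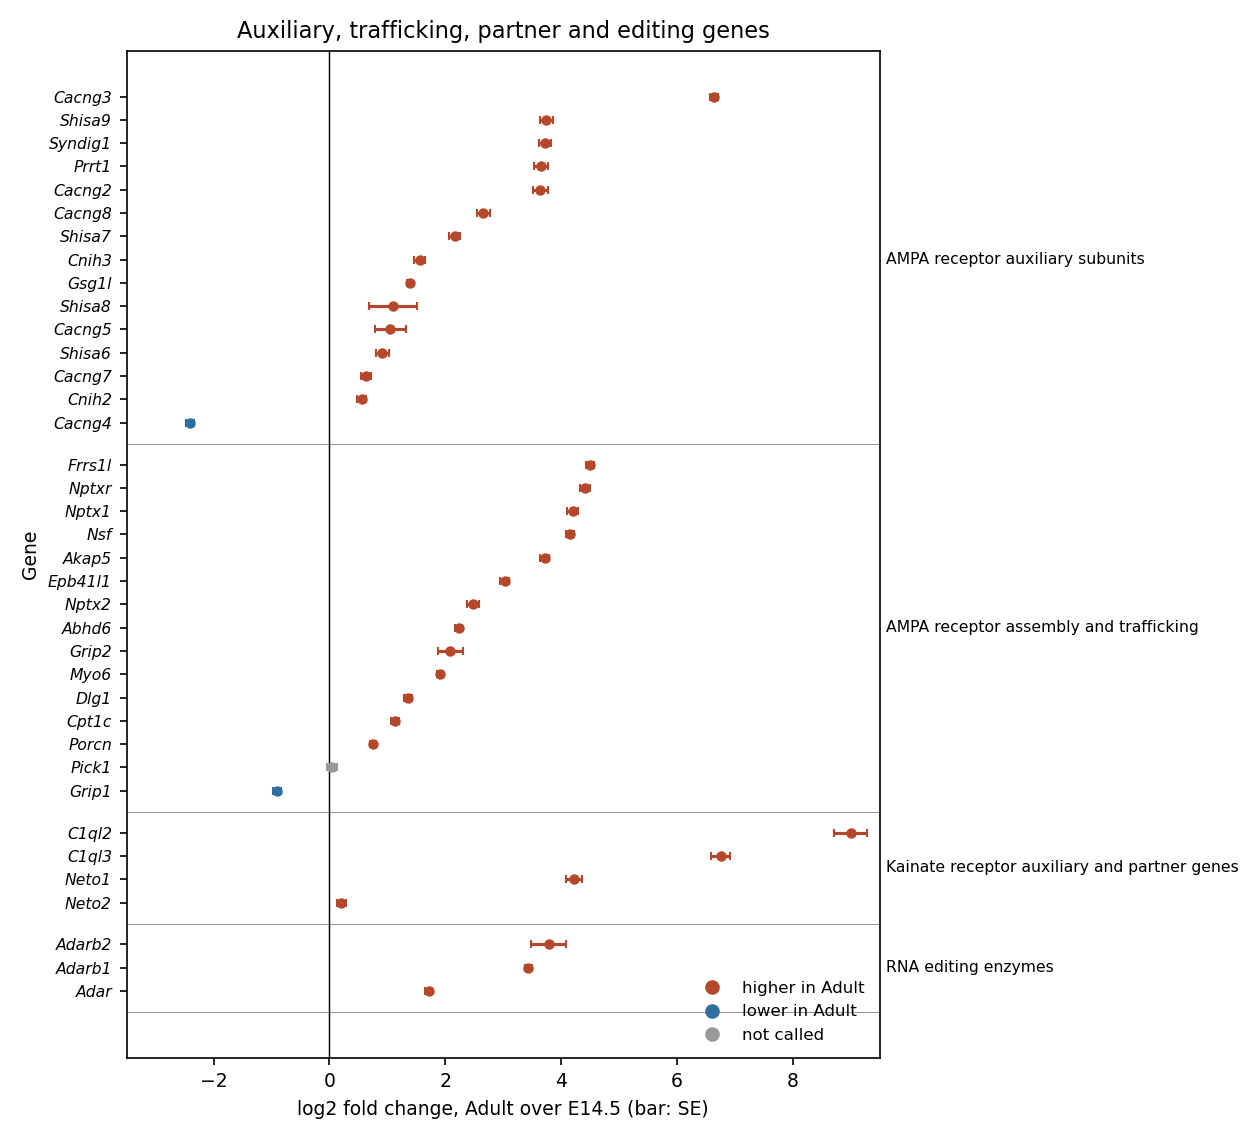
Log2 fold change, Adult over E14.5, of the genes in the lists of auxiliary, trafficking, kainate partner and editing genes, with bars of SE from edgeR with TMM factors. Cacng4 (-2.41) and Grip1 (-0.91) lie below 0, Pick1 was not called and is lower in adults with total counts only, as is Neto2. The value of C1ql2 rests on 0 or 1 counts per E14.5 library and is not to be read as a size.

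For the members the gene with the most similar profile over the 7 libraries was looked up, by the root mean square difference of log2(CPM + 0.5) after centring each gene, among 11319 genes that averaged 10 CPM or more. These distances describe 7 libraries in which most genes differ by age, and carry no p. The nearest gene was St6galnac5 for Gria1 (0.0485), Vps13c for Gria2 (0.0551) and Upp2 for Gria3 (0.0576). Upp2 averaged only 1.24 CPM at E14.5, a level at which the added 0.5 matters, and its fitted log2 fold change was 4.14 beside 3.64 for Gria3. For the kainate genes it was Pcx for Grik1 (0.0714), Atxn7 for Grik2 (0.0283), Slain1 for Grik3 (0.0422), Sirpa for Grik4 (0.0662) and Kctd17 for Grik5 (0.0304).

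RefSeq promoter sequences (GRCm38.p6, 250 bases before to 50 after the start) were at hand for 6 of the 9 members, Gria2, Gria4, Grik2, Grik3, Grik4 and Grik5. The GC box GGGCGG, searched on both strands, occurs in 3 of the 6, with 7 matches in Grik3, 2 in Grik4 and 2 in Grik5, and in 35.9% of 27025 promoters. TATAAA (14.2% of promoters), TGACGTCA (1.88%) and CGCATGCG (1.91%) have no match in the 6 windows. Gria4 and Grik4 are shown as the AMPA and the kainate gene with the largest rise among the 6, with GC boxes in capitals. The Grik4 window, chr9:42944322-42944621 on the minus strand, holds 42 CpG dinucleotides, and the Gria4 window, chr9:4796185-4796484 on the minus strand, holds 17, where the median of all promoters is 7.
Grik4: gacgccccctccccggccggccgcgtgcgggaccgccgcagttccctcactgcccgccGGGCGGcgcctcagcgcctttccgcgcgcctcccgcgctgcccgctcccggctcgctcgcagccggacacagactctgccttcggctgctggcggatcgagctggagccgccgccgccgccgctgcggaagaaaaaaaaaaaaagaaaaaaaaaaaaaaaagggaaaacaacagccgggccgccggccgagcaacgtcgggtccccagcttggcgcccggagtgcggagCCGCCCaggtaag
Gria4: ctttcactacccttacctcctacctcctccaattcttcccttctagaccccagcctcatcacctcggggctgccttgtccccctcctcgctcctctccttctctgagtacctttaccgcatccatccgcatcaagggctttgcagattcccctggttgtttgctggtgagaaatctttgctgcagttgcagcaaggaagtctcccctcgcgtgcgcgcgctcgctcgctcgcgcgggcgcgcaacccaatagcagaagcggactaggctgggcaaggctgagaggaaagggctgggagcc

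The tissue label was checked against marker genes, and several cell classes moved with age beside the members. Of 9 cortical projection neuron markers, 3 were higher and 6 lower in adults, with a summed 4634 to 5057 CPM in adults and 1624 to 1790 CPM at E14.5. The 8 progenitor markers all fell, with a sum of 92.4 to 98.5 CPM in adults and 2333 to 2425 CPM at E14.5. The 9 oligodendrocyte markers all rose, with 3180 to 3311 CPM in adults and 44.2 to 59.2 CPM at E14.5, as did the 7 astrocyte markers, with 5240 to 5421 CPM in adults and 262 to 338 CPM at E14.5. Adult libraries thus held more RNA of glial genes and less of progenitor genes than E14.5 libraries. The 6 pan-neuronal markers summed to 7601 to 8086 CPM in adults and 2463 to 2928 CPM at E14.5, with 4 higher and 2 lower in adults. The 6 striatal markers summed to 186 to 293 CPM in adults, highest in replicate 3, and 24.0 to 32.3 CPM at E14.5, and the 3 thalamic markers to 5.86 to 7.99 CPM in adults and 52.4 to 61.2 CPM at E14.5. At E14.5 the thalamic sum rested mostly on Lhx9 (45.2 CPM), with Tcf7l2 at 10.9 CPM. Gbx2 had 0 to 2 counts per library and did not pass the low-count filter. No listed marker was at 0 in all libraries of an age. The part of these cell classes in the subunit differences was not tested. Mitochondrially encoded genes took 7.74 to 8.51% of counts in adults and 2.22 to 2.36% at E14.5, and no 2 libraries agreed within sampling noise.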

How the data were processed

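Libraries from cortical tissue were prepared with TruSeq stranded mRNA (Adult) or the unstranded TruSeq RNA v2 kit (E14.5), per the labels' protocols. Named in the submitters' processing notes are featureCounts 1.5.0, TopHat2 2.1.0, bcl2fastq 1.8.4 and GRCm38, with strand setting, multimapped reads and annotation release not given in the sources used here. Deposited by the authors were counts per gene, RPM (counts over the library total) and RPKM (1 length per gene, equal to the GENCODE M21 exon length for all 9 members). Library totals were 27327927 to 29996018 counts in adults and 32533065 to 43197226 at E14.5.

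Counts were tested with edgeR 4.0.16 (R 4.3.3): TMM factors, a low-count filter (minimum count 10, minimum total 15), quasi-likelihood F test, age as the only term, adjusted p of 0.05. Changes beyond 2-fold used glmTreat. SE is the log2 fold change over the square root of F. Shares and ratios used exact two-sided permutation tests (SciPy 1.17.1). Alternatives were other scalings and filters, DESeq2 1.42.0, limma 3.58.1 (limma-trend) on log2(RPKM + 0.5) or (RPKM + 0.1), females only, sex, replicate number as a block, each library left out, deposited RPM and exon length; the longest coding transcript was added after seeing the data.

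Members and lists were chosen with earlier results of these data known. Named from each list were the 2 largest called changes in its majority direction and the largest opposite one, lists of 5 or fewer in full, and 1 nearest gene per member. Some genes that this rule chose are not reported here.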

Additional observations from a re-analysis of the deposited data

Results flagged for a closer look

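Grik5 in E14.5 replicate 3 stood apart from the other libraries of its age, with 27.2 normalised RPKM beside 23.9, 24.3 and 24.5, a gap of 0.844 of the group's range (Dixon's critical value for 4 libraries is 0.829). Of 41 groups of values tested this way it was the one that passed, where chance flags about 1 in 20. Over the fits that left out 1 library, the log2 fold change of Grik5 was 0.69 to 0.78.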

How the results depend on the processing

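The fold changes of Gria1 to Gria4, Grik1, Grik4 and Grik5 kept their direction and passed under all 18 alternatives, with ranges of 2.51 to 3.02, 1.48 to 1.96, 3.05 to 3.69, 2.56 to 3.20, 0.71 to 1.49, 2.29 to 3.85 and 0.32 to 0.79. Grik2 (0.18, edgeR adjusted p = 0.037) reversed with total counts only (-0.24, edgeR adjusted p = 0.0077) and in limma on RPKM + 0.5 (-0.21, limma adjusted p = 0.021) or + 0.1 (-0.23, limma adjusted p = 0.02). It did not pass with upper-quartile factors (0.052, edgeR adjusted p = 0.49), no filter (0.10, adjusted p = 0.22), females only (0.15, adjusted p = 0.068), sex as a covariate (0.16, adjusted p = 0.13), or without Adult replicate 1 or 3 or E14.5 replicate 1 or 3 (all left-out libraries 0.13 to 0.22). Grik3 did not pass in limma (0.18 and 0.19, adjusted p = 0.054 each). With total counts only and in both limma fits, 1 subunit gene (Grik2), 2 trafficking genes and 1 kainate partner were lower in adults. Neto2 was then -0.21, -0.20 and -0.21, and Pick1 -0.36, -0.31 and -0.35. Neto2 was 0.15 to 0.27 over left-out libraries and passed as higher under 7 of 18 alternatives. Pick1 was also -0.077 with upper-quartile factors, -0.028 without a filter and -0.021 without Adult replicate 1. The fit with total counts only differs from the main fit in scaling alone, and the limma fits share that scaling through the deposited RPKM. TMM factors were 0.844 to 0.854 in adults and 1.12 to 1.15 at E14.5. Neither why the scalings differ nor the cause of the other Pick1 reversals was tested. Total counts put the median of all genes at -0.49 and 37.1% of calls in the higher direction, beside 48.3% with TMM factors and 37.0% and 36.9% in limma. The adult minus E14.5 difference in the Grik5 share reversed, being 2.25 percentage points on RPM, 0.034 with the longest coding transcript, and -1.59 to 0.38 over left-out libraries. The other shares and ratios kept their direction.

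Same-numbered libraries of the 2 ages correlated at 0.0004, -0.0098 and 0.023, so they share only a number. With the replicate block 8535 genes were higher in adults and 9134 lower, beside 8683 and 9292, and all 9 subunit genes still passed as higher. Of the members, Grik4 had the fewest E14.5 reads (67 to 107 counts), and C1ql2, C1ql3 (11 to 45), Adarb2 (12 to 77) and Cacng3 (46 to 65) had fewer.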
